A study of Mus musculus with 27 samples.

Results

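Complex II of the respiratory chain, succinate dehydrogenase (SDH), was described here through 8 genes: its subunits Sdha, Sdhb, Sdhc and Sdhd, the assembly factors Sdhaf1, Sdhaf2 and Sdhaf4, and Acod1, whose product makes an inhibitor of the enzyme. They were chosen by name, though with earlier results of these data known, and are 8 of the 50559 genes in the deposited count table. All 8 were abundant enough to be tested, among 13614 genes.

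SDH oxidizes succinate to fumarate in the tricarboxylic acid cycle and passes the electrons to ubiquinone in the inner mitochondrial membrane. SDHA carries the flavin and the site that binds succinate, SDHB carries the iron-sulfur clusters, and SDHC and SDHD anchor the enzyme in the membrane and form the ubiquinone site. SDHAF2 helps to insert the flavin into SDHA, SDHAF4 binds the flavin-carrying SDHA before it joins SDHB, and SDHAF1 helps SDHB to acquire its clusters. In activated macrophages Acod1 (also called Irg1) turns cis-aconitate into itaconate, which inhibits SDH, and the mitochondrial chaperone TRAP1 is known as another inhibitor of SDH.

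Bone marrow of female C57BL/6 mice of 3 to 4 months, either WT or TRAP1-deficient (TRAP1 KO, or KO below), was differentiated in medium with an L929 cell supernatant as the source of M-CSF. The resulting macrophages were used unpolarized (Mφ, M0 in the labels) or as M2 cells after IL-4 at 10 ng/mL for 24 h. They were then kept for 48 h in control medium (DMEM) or in MPNST-CM, a medium conditioned by mouse malignant peripheral nerve sheath tumor cells that lack Nf1 and p53, and poly(A) RNA was sequenced from the 3′ end. The 8 groups, Mφ or M2, WT or KO, control medium or MPNST-CM, had 3 libraries each in the batch labelled 1, and the labels do not say whether replicates came from separate mice, so the p-values measure the spread between these libraries.

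Batch 1 held 7037684 to 9089792 counts per library (median 7872887). Values below are CPM, counts per 1000000 counts of the TMM-scaled library, and 3 counts, taken as the limit of detection, correspond to 0.323 to 0.450 CPM. Trap1, the targeted gene, had 83 to 144 counts in the 12 WT libraries and 0 counts in the 12 KO libraries. Xist had 2079 to 4010 counts in the WT libraries and 0 to 9 in the KO libraries, while the Y-linked Ddx3y and Kdm5d had 0 counts in all of them, so that this difference and the genotype cannot be told apart in batch 1. The summed level of 6 macrophage genes was 4557 to 6682 CPM. The 3 libraries of batch 2 were not used in the main tests, and 2 of them went against their labels in 3 of 4 genes looked at, as described at the end. This limit holds for every result given below with batch 2 added. In 5 groups of batch 1, the 4 of Mφ and WT M2 in MPNST-CM, replicate 1 stood apart. Chi-square divided by its degrees of freedom was 16.04 to 37.4 for it and each other replicate of its group, and 2.11 to 3.42 for the other two. Without these 5 libraries, 1 of the 46 calls made for the 8 genes was lost and 8 were gained.

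The promoters of the gene that changed most, Acod1, and of the catalytic subunit, Sdha, are shown, each marked for a motif that the other lacks. Both also hold the HIF letters given below, which are not marked. Both are the 300 bases from 250 before to 50 after the start of the gene (RefSeq, GRCm38.p6), and capitals mark matches on either strand to an NF-kB motif (GGAAATTCC) in Acod1 and to the NRF1 motif (GCGCA, then any base, then GCGC) in Sdha, where NRF1 is an activator of nuclear genes for mitochondrial proteins.

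Acod1 promoter, chr14:103046762-103047061, plus strand: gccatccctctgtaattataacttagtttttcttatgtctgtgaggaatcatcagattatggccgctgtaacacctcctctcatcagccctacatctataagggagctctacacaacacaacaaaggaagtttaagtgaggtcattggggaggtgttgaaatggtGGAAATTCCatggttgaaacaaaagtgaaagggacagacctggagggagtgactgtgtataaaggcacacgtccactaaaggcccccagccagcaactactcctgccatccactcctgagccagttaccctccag

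Sdha promoter, chr13:74350191-74350490, minus strand: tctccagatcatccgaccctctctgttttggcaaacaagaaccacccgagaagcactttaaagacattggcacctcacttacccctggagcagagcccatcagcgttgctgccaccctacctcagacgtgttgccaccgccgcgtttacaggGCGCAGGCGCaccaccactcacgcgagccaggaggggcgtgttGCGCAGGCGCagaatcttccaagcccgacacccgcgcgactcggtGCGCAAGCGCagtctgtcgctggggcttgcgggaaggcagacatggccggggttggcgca

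Of the 8 genes, 7 had a promoter in the table, and Sdhc had none. The NF-kB letters were found in Acod1 alone among the 7 and in 0.322% of 27025 promoters. The NRF1 letters were found in Sdha (3 matches), Sdhd (1) and Sdhaf4 (1), and in 4.78% of all promoters. The letters CCGGAAG, bound by GABPA, another activator of mitochondrial genes, were found in Sdhb (1), Sdhd (1), Sdhaf1 (1) and Sdhaf2 (2), and in 9.12% of all promoters. The letters ACGTG, the core bound by HIF, were found in Sdha, Sdhaf1 and Acod1, and in 19.7% of all promoters. Each of the 7 thus held at least 1 of the 4 motifs. The share of all 27025 promoters that hold at least 1 was not computed, so this count cannot be set against it. A match describes these letters and is not evidence of binding.

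Acod1 varied most among the 8 genes. Its highest group mean was 9.85 times its lowest, whereas this ratio was between 1.44 and 2.15 for the other 7. In Mφ kept in control medium, Acod1 had 24.2, 25.9 and 24.9 CPM in the WT libraries and 50.9, 62.9 and 61.0 CPM in the KO libraries. In Mφ exposed to MPNST-CM it had 30.9, 32.6 and 35.5 CPM in WT and 7.98, 7.65 and 12.6 CPM in KO. The KO libraries were thus all above the WT libraries in control medium and all below them in MPNST-CM. In these bulk samples, fewer cells of a type and less RNA per cell cannot be told apart.

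**Figure D1:**
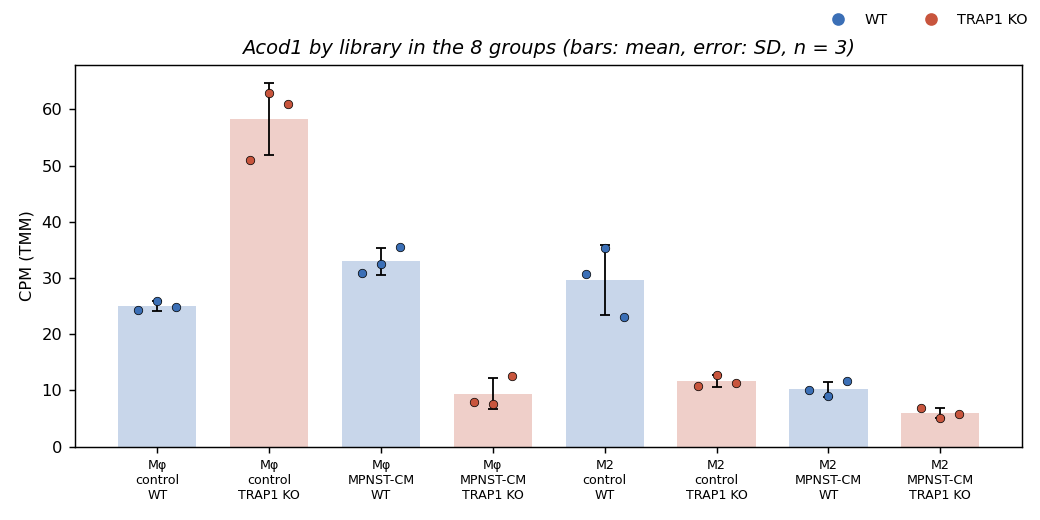
Acod1 in CPM in each of the 24 libraries of batch 1, by group, with points for libraries and bars for group means (n = 3). The 3 libraries of KO Mφ in control medium, between 50.9 and 62.9 CPM, lie above all others, and those of KO M2 in MPNST-CM, between 5.08 and 6.87 CPM, lie below all others.

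In M2 cells in control medium, Acod1 had 30.7, 35.3 and 22.99 CPM in WT and 10.8, 12.8 and 11.3 CPM in KO. In M2 cells in MPNST-CM it had 10.0, 9.01 and 11.7 CPM in WT and 6.87, 5.08 and 5.81 CPM in KO. In both media the KO libraries were all below the WT libraries. The plot of Acod1 by library shows 4 levels that did not overlap. KO Mφ in control medium stood highest, WT Mφ in either medium and WT M2 in control medium came next, of which WT M2 overlapped with both, KO M2 in control medium, WT M2 in MPNST-CM and KO Mφ in MPNST-CM followed, and KO M2 in MPNST-CM stood lowest.

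Tested between genotypes, Acod1 was higher in KO than in WT Mφ in control medium (log2 fold change 1.22 ± 0.15 SE, adjusted p = 1.15e-06). It was lower in KO in the other 3 settings, with log2 fold changes of -1.81 ± 0.17 in Mφ with MPNST-CM (adjusted p = 1.76e-09), -1.35 ± 0.17 in M2 with control medium (adjusted p = 1.63e-06) and -0.80 ± 0.19 in M2 with MPNST-CM (adjusted p = 0.00205). The difference in M2 with MPNST-CM did not pass when the 3 libraries of batch 2 were added (adjusted p = 0.144) or added with batch as a covariate (adjusted p = 0.0774). The other 3 passed in every alternative that was run.

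Tested between media, Acod1 fell with MPNST-CM in KO Mφ (log2 fold change -2.63 ± 0.17, adjusted p = 9.06e-13), in WT M2 (-1.54 ± 0.17, adjusted p = 7.32e-08) and in KO M2 (-0.98 ± 0.19, adjusted p = 0.000179). In WT Mφ it did not pass, with a log2 fold change of 0.40 ± 0.15 (adjusted p = 0.0654), although the 3 libraries with MPNST-CM were above the 3 with control medium. The response of Mφ to MPNST-CM differed between genotypes, the log2 fold change being lower by 3.03 ± 0.23 in KO (interaction -3.03, adjusted p = 1.06e-10). In M2 cells the corresponding difference, 0.55, did not pass (adjusted p = 0.14).

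With IL-4, Acod1 had a log2 fold change of 0.25 in WT cells in control medium (adjusted p = 0.224) and fell in KO cells in control medium (-2.32 ± 0.16, adjusted p = 1.22e-11). These IL-4 responses differed between genotypes (interaction -2.57 ± 0.23, adjusted p = 1.39e-08). In MPNST-CM, Acod1 was lower in M2 than in Mφ both in WT (-1.69 ± 0.17, adjusted p = 1.11e-08) and in KO (-0.67 ± 0.19, adjusted p = 0.0237). The difference in KO did not pass without M2 replicate 2, without M2 replicate 3 or without Mφ replicate 3 (adjusted p up to 0.249, log2 fold changes from -0.80 to -0.40 over the 6 libraries left out in turn), nor with the compared groups alone (adjusted p = 0.08) or with batch 2 added (adjusted p = 0.388). These comparisons share groups with each other, so their values are given side by side only.

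Markers of other cells were compared with Acod1. A list of 6 genes of neutrophils, which can also express Acod1, had a summed level of 1.75 to 1.96 CPM in KO Mφ in control medium, the lowest of the 8 groups and the group where Acod1 was highest. They summed to 12.9 to 18.3 CPM in WT M2 in control medium, the highest, and their defining marker Ly6g had at most 2.03 CPM in any library. The 5 markers of IL-4 activation summed to 1192 to 1372 CPM in WT Mφ with MPNST-CM and to 2638 to 2755 CPM in KO Mφ with MPNST-CM, where Acod1 was lower. In control medium they summed to 753 to 799 CPM in WT Mφ and 833 to 908 CPM in KO Mφ, where Acod1 was higher. The sums do not show each marker. Among the 8 group means, that of Chil3 was lowest in KO Mφ with MPNST-CM and that of Clec10a in WT Mφ with MPNST-CM. That of Mrc1, which reached 3763 CPM in a library, was lowest in KO M2 in control medium. Chil3 reached at most 311 CPM. The part of these lists in the Acod1 results was not tested.

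The subunits Sdha, Sdhb and Sdhc were highest in WT M2 cells in control medium, where every library was above every library of the other 7 groups. Sdha had 289, 295 and 297 CPM there, against 186, 204 and 221 CPM in WT Mφ in control medium. It had 209.6, 237 and 229.6 CPM in WT M2 in MPNST-CM and 267, 275 and 252 CPM in KO M2 in control medium. The M2 libraries of WT in control medium did not overlap with any of these groups.

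**Figure D2:**
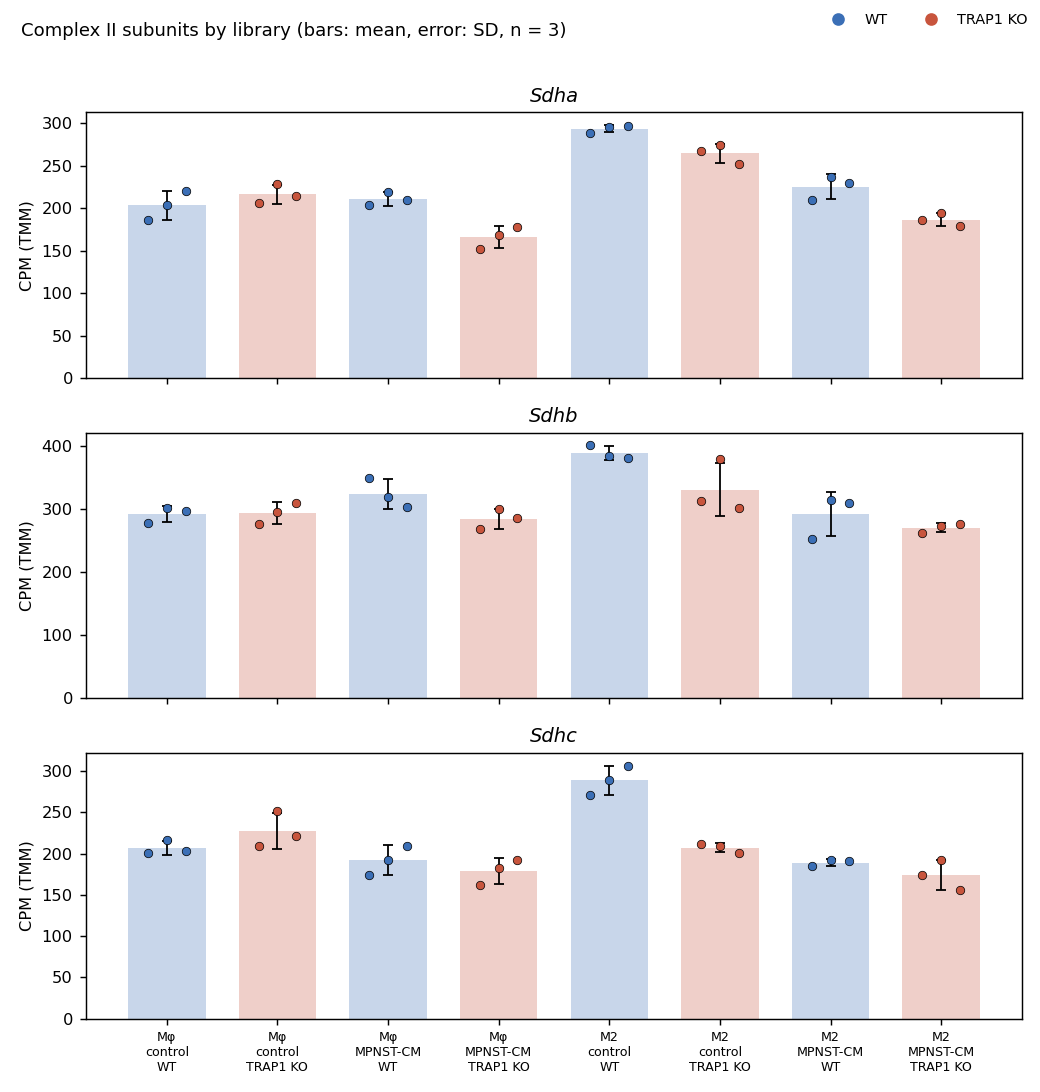
Sdha, Sdhb and Sdhc in CPM in each of the 24 libraries of batch 1, 1 panel a gene; points are libraries and bars are group means (n = 3). In each panel the 3 libraries of WT M2 in control medium lie above the libraries of the other 7 groups.

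The remaining Sdha values were 206, 229 and 214 CPM in KO Mφ in control medium, 204, 219.7 and 210.3 CPM in WT Mφ in MPNST-CM, 153, 169 and 178 CPM in KO Mφ in MPNST-CM, and 187, 195 and 179 CPM in KO M2 in MPNST-CM. The 3 libraries of KO Mφ in MPNST-CM were below all others. In the plot of the 3 subunits by library, the middle groups overlapped from one to the next between WT M2 in MPNST-CM and KO M2 in MPNST-CM, with WT and KO Mφ in control medium and WT Mφ in MPNST-CM between them.

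Sdhb had 401, 385 and 381 CPM in WT M2 in control medium. It had 278, 301 and 297 CPM in WT Mφ in control medium and 252, 315 and 310.1 CPM in WT M2 in MPNST-CM. In KO M2 it had 313, 379 and 302 CPM in control medium and 263, 273 and 276 CPM in MPNST-CM. The group means of the other 3 groups were 294 CPM in KO Mφ in control medium, 324 CPM in WT Mφ in MPNST-CM and 285 CPM in KO Mφ in MPNST-CM. Below WT M2 in control medium, groups next to each other in level overlapped.

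Sdhc had 271, 289 and 307 CPM in WT M2 in control medium. It had 201, 217 and 203 CPM in WT Mφ in control medium, 211, 209 and 201 CPM in KO M2 in control medium and 184, 192 and 191 CPM in WT M2 in MPNST-CM. Its lowest library, at 156 CPM, was of KO M2 in MPNST-CM, where the other 2 had 174 and 192 CPM. The means of KO Mφ in control medium, WT Mφ in MPNST-CM and KO Mφ in MPNST-CM were 228, 192 and 179 CPM. As for Sdhb, the groups below WT M2 in control medium overlapped with their neighbours.

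IL-4 raised these subunits in WT cells in control medium, with log2 fold changes of 0.53 ± 0.08 for Sdha (adjusted p = 3.95e-06), 0.41 ± 0.09 for Sdhb (adjusted p = 0.000569) and 0.48 ± 0.09 for Sdhc (adjusted p = 8.85e-05). With the assembly factor Sdhaf1, 4 of the 8 genes were called in this comparison, all higher in M2, where 37.2% of all genes were called in either direction and 19.1% as higher. The median log2 fold change was 0.45 over the 8 genes and -0.03 over all genes tested. In KO cells in control medium 2 of the 8 were called (28.5% of all genes), Sdha higher in M2 (0.29 ± 0.08, adjusted p = 0.00528) and Acod1 lower. Sdhb at 0.17 and Sdhc at -0.14 did not pass there (adjusted p = 0.164 and 0.286). For Sdhc the IL-4 responses of the genotypes differed (interaction -0.62 ± 0.13, adjusted p = 0.0018), and with Acod1 these were the 2 of 8 genes called for that interaction, both lower (7.08% of all genes in either direction and 3.22% as lower). The rise of Sdha in KO was not called once batch 2 was added (adjusted p = 0.496), nor was the interaction of Sdhc (adjusted p = 0.134).

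In MPNST-CM, Acod1 was the single gene of the 8 called between M2 and Mφ cells, both in WT (24.9% of all genes called in either direction and 13% as lower) and in KO (11.2% and 4.47%). Sdhaf2 passed there in WT with no filter on low counts (0.37, adjusted p = 0.011). In WT, the IL-4 difference in MPNST-CM was below that in control medium for 5 of the 8 genes (12.1% of all genes called in either direction and 6.91% as lower). The interactions were -0.43 ± 0.11 for Sdha (adjusted p = 0.0089), -0.56 ± 0.13 for Sdhb (adjusted p = 0.00354), -0.51 ± 0.13 for Sdhc (adjusted p = 0.00804), -1.02 ± 0.27 for Sdhaf1 (adjusted p = 0.0132) and -1.93 ± 0.23 for Acod1 (adjusted p = 1.31e-06). The interaction of Sdha was lost without WT M2 replicate 1 in MPNST-CM (adjusted p = 0.0588), and that of Sdhaf1 without WT M2 replicate 3 in MPNST-CM or without WT M2 replicate 4 in control medium (adjusted p up to 0.0615). With batch 2 added, that of Acod1 alone was still called. With the 4 groups compared alone, those of Sdha and Sdhaf1 missed the threshold (adjusted p = 0.0544 for both), and with no filter on low counts that of Sdha did (adjusted p = 0.088).

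Exposure to MPNST-CM was followed by lower levels of Sdha, Sdhb and Sdhc in WT M2, while no change of them was called in WT Mφ, a difference tested by the IL-4 by medium interactions above. In WT Mφ none of the 8 genes was called, with edgeR on all 8 groups or with DESeq2, where 21.2% of all genes were with each. Of the 8, Sdhaf1 and Acod1 had an unadjusted p under 0.05, and both were called as higher with no filter on low counts (adjusted p = 0.0402 and 0.0426) and with the compared groups alone (adjusted p = 0.0425 and 0.0366). The log2 fold changes of Sdha, Sdhb and Sdhc were 0.05, 0.15 and -0.11 (adjusted p = 0.71, 0.272 and 0.464). In WT M2, 4 of the 8 genes were called, all lower in MPNST-CM (24.5% of all genes in either direction and 13.3% as lower). Sdha fell by 0.38 ± 0.08 on the log2 scale (adjusted p = 0.000486), Sdhb by 0.41 ± 0.09 (adjusted p = 0.00102) and Sdhc by 0.61 ± 0.09 (adjusted p = 7.46e-06), beside Acod1. The median over the 8 genes was -0.40, against -0.03 over all genes. Trap1, measurable in WT only, fell in WT M2 as well (-0.69, adjusted p = 0.00797). It did not pass between media in WT Mφ (0.18, adjusted p = 0.537), and it rose with IL-4 in WT cells in control medium (0.48, adjusted p = 0.0434).

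In KO Mφ, 5 of the 8 genes were called between media (32.9% of all genes), with Sdha (-0.38 ± 0.08, adjusted p = 0.000355), Sdhc (-0.35 ± 0.09, adjusted p = 0.00319) and Acod1 lower and Sdhaf2 and Sdhaf4 higher in MPNST-CM. Sdhb at -0.04 did not pass (adjusted p = 0.764). In KO M2, 6 of the 8 were called (36.9% of all genes), with Sdha (-0.50 ± 0.08, adjusted p = 7.78e-06), Sdhb (-0.29 ± 0.09, adjusted p = 0.012), Sdhc (-0.25 ± 0.09, adjusted p = 0.0298) and Acod1 lower and the same 2 assembly factors higher. The medians over the 8 genes were 0.04 in Mφ and -0.05 in M2, and those over all genes -0.04 and -0.01.

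Several of these calls rested on single libraries. In WT M2, Sdhb was not called without replicate 1 in MPNST-CM (adjusted p = 0.0541). In KO M2, Sdhb was not called without replicate 1 in MPNST-CM or without replicate 2 in control medium (adjusted p up to 0.196). Sdhc there was not called without replicate 1 or 3 in MPNST-CM or without any of the 3 replicates in control medium (adjusted p up to 0.178). The calls of Sdha did not depend on any single library. With batch 2 added, neither Sdha (adjusted p from 0.169 to 0.608) nor Sdhb (adjusted p = 0.117 in WT M2 and 0.782 in KO M2) was called between media in any group. Batch 2 held no library of WT M2 or KO Mφ, so the libraries compared there were the same. The spread was estimated over all groups, including the 2 batch 2 libraries that went against their labels. Sdha in WT M2 was at -0.33 ± 0.16, against -0.38 ± 0.08 in batch 1 alone. Sdhc, at -0.56 in WT M2, was not called either (adjusted p = 0.0506, or 0.0476 and called with batch as a covariate), nor in KO Mφ (adjusted p = 0.246), and in KO M2 it changed sign, to 0.13 (adjusted p = 0.669). Without the 2 libraries that are described with Sdhd, Sdhb and Sdhc did not pass in KO M2 (adjusted p = 0.175 and 0.0697).

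**Figure D3:**
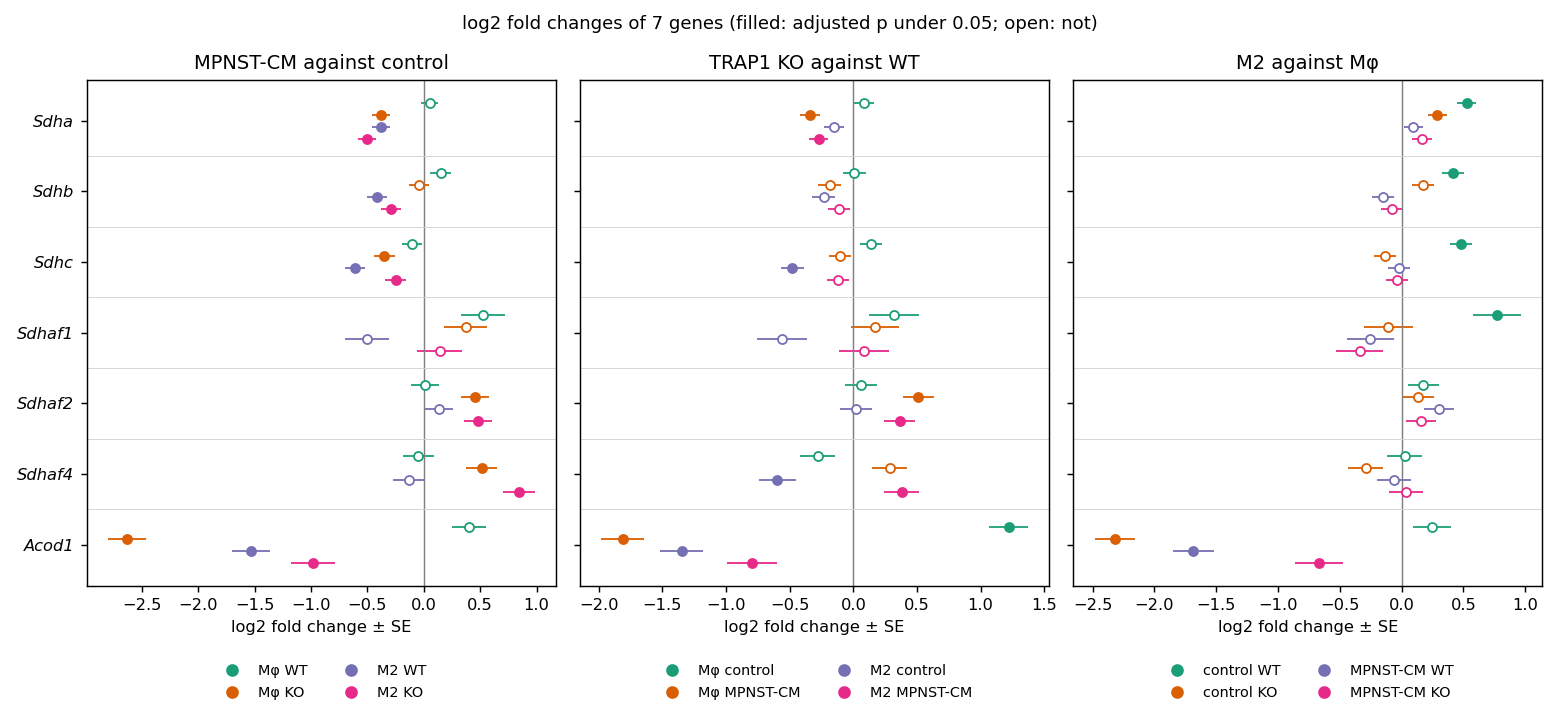
Log2 fold changes of 7 of the 8 genes (all but Sdhd, whose standard errors are far wider) in the 4 comparisons of media, the 4 of genotypes and the 4 of M2 with Mφ cells; points are edgeR estimates and bars 1 standard error, with filled points for adjusted p under 0.05. Acod1 spans from -2.63 to 1.22, and for KO cells in MPNST-CM, compared with control medium or with WT, the points of Sdhaf2 and Sdhaf4 lie above 0 while that of Sdha lies below it.

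Between genotypes, the subunits differed in few comparisons in the main tests. In Mφ in control medium, Acod1 was the single gene of the 8 that was called (16.6% of all genes in either direction and 8.63% as higher), and Sdha, Sdhb and Sdhc had log2 fold changes of 0.09, 0.01 and 0.14. In Mφ in MPNST-CM, 3 of the 8 were called (38.2% of all genes), Sdha (-0.34 ± 0.08, adjusted p = 0.000901) and Acod1 lower and Sdhaf2 higher in KO. In M2 in control medium, 3 of the 8 were called, all lower in KO (16.4% of all genes in either direction and 7.87% as lower), namely Sdhc (-0.48 ± 0.09, adjusted p = 0.000369), Sdhaf4 and Acod1. The median over the 8 genes was -0.52 and that over all genes 0.02. Without the 5 replicate 1 libraries, 6 of the 8 were called there (26.8% of all genes), Sdha (-0.15, adjusted p = 0.0496), Sdhb (-0.24, adjusted p = 0.00441) and Sdhaf1 (-0.56, adjusted p = 0.0221) besides. None of these 5 libraries is of M2 in control medium, so the libraries compared there were the same. The estimate of the spread is shared by all groups. In M2 in MPNST-CM, 4 of the 8 were called (34% of all genes), Sdha (-0.27 ± 0.08, adjusted p = 0.00751) and Acod1 lower and Sdhaf2 and Sdhaf4 higher. Without the 5 libraries, which include replicate 1 of WT M2 in MPNST-CM, 5 of the 8 were called there (40.6% of all genes). Sdhb (-0.28, adjusted p = 0.00113) and Sdhc (-0.21, adjusted p = 0.0217) were lower besides, and Sdhaf4 was not called (adjusted p = 0.076). The plot of log2 fold changes sets the estimates of the main tests side by side. Sdha no longer passed in either comparison in MPNST-CM when batch 2 was added (adjusted p = 0.115 in Mφ and 0.694 in M2).

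The response to MPNST-CM differed between genotypes in Mφ for 3 of the 8 genes (19.7% of all genes), Sdha (interaction -0.43 ± 0.11, adjusted p = 0.00545), Acod1 and Sdhaf4. In M2 it differed for 2 of the 8 (20.2% of all genes in either direction and 9.36% as higher), Sdhc (0.36 ± 0.13, adjusted p = 0.0445) and Sdhaf4. The interaction of Sdhc was lost without any 1 of the 12 libraries except KO replicate 3 in MPNST-CM (adjusted p up to 0.198). It was also lost in 8 of the 9 alternatives that did not leave out a single library, with an adjusted p from 0.0556 with DESeq2 to 0.232 with no filter on low counts. The exception was the fit without the 5 replicate 1 libraries. That of Sdha in Mφ was lost with batch 2 added (adjusted p = 0.385) but not without any single library.

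Of the assembly factors, Sdhaf2 and Sdhaf4 were highest in KO M2 and KO Mφ in MPNST-CM. Sdhaf2 had 79.1, 85.1 and 67.3 CPM in KO M2 and 58.0, 66.7 and 83.0 CPM in KO Mφ in MPNST-CM. In WT cells in MPNST-CM it had 61.5, 54.9 and 63.4 CPM in M2 and 44.5, 50.9 and 50.4 CPM in Mφ. Each KO group was above its WT group without overlap. In control medium the group means were 48.3 CPM in WT Mφ, 50.5 CPM in KO Mφ, 54.6 CPM in WT M2 and 55.3 CPM in KO M2.

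Sdhaf2 rose with MPNST-CM in KO Mφ (log2 fold change 0.46 ± 0.12, adjusted p = 0.00536) and KO M2 (0.48 ± 0.12, adjusted p = 0.00297), and in MPNST-CM it was higher in KO than in WT Mφ (0.51 ± 0.12, adjusted p = 0.00177) and M2 (0.36 ± 0.12, adjusted p = 0.0232). In WT, its log2 fold changes with MPNST-CM were 0.01 in Mφ and 0.14 in M2, and neither passed. The difference between these responses was not called for Sdhaf2, at 0.45 in Mφ (adjusted p = 0.0776) and 0.34 in M2 (adjusted p = 0.186). The call of Sdhaf2 in KO Mφ was lost without replicate 1 in control medium or replicate 3 in MPNST-CM (adjusted p up to 0.0769). The call between genotypes of M2 in MPNST-CM was lost without WT replicate 1, 2 or 3 or KO replicate 1 or 2 (adjusted p up to 0.125). With batch 2 added, Sdhaf2 was not called in any of the 4 comparisons (adjusted p from 0.0595 to 0.505), and with batch as a covariate as well it was called in Mφ, between media in KO (adjusted p = 0.0382) and between genotypes in MPNST-CM (adjusted p = 0.0389). Batch 2 held no library of the groups in these Mφ comparisons.

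**Figure D4:**
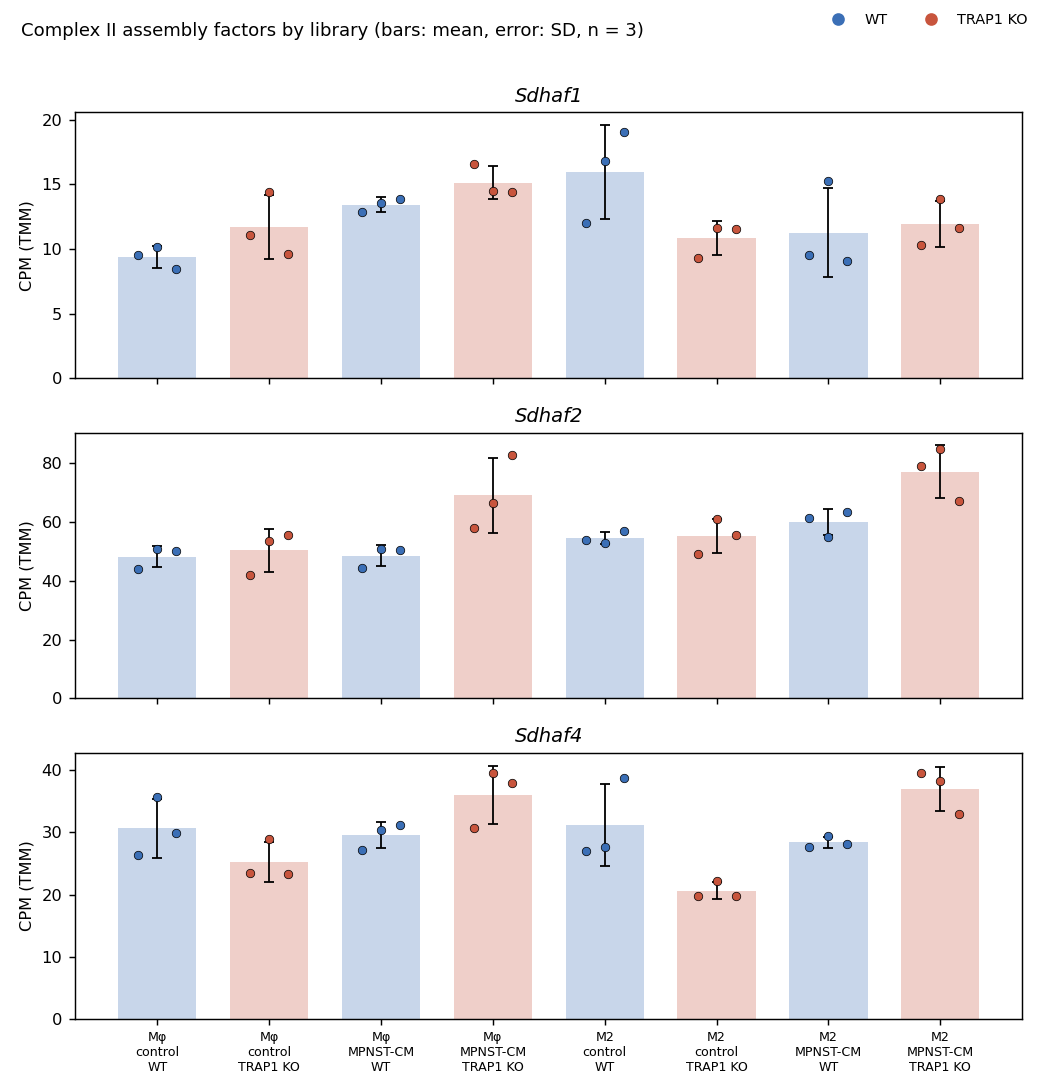
Sdhaf1, Sdhaf2 and Sdhaf4 in CPM in each of the 24 libraries of batch 1, 1 panel a gene; points are libraries and bars are group means (n = 3). For Sdhaf2 and Sdhaf4 the highest group means are those of KO M2 in MPNST-CM, 77.2 and 37.0 CPM, and for Sdhaf1 the libraries of most groups overlap.

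Sdhaf4 had 39.6, 38.4 and 32.98 CPM in KO M2 in MPNST-CM and 19.8, 22.2 and 19.8 CPM in KO M2 in control medium. In WT M2 it had 27.7, 29.3 and 28.1 CPM in MPNST-CM and 26.998, 27.7 and 38.8 CPM in control medium. Thus the KO libraries were below the WT libraries in control medium and above them in MPNST-CM. In Mφ the pattern was narrower, with 23.5, 29.0 and 23.2 CPM in control medium and 30.7, 39.6 and 37.9 CPM in MPNST-CM for KO. For WT Mφ the means were 30.7 CPM in control medium and 29.6 CPM in MPNST-CM. In the plot of the 3 assembly factors, the 2 KO groups in MPNST-CM have the highest means of Sdhaf4 and the 2 in control medium the lowest.

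Sdhaf4 rose with MPNST-CM in KO M2 (0.84 ± 0.14, adjusted p = 2.54e-05) and in KO Mφ (0.51 ± 0.14, adjusted p = 0.00488), and had log2 fold changes of -0.13 and -0.05 in WT, which did not pass. The response differed between genotypes in M2 (interaction 0.98 ± 0.20, adjusted p = 0.000647) and in Mφ (0.56 ± 0.20, adjusted p = 0.0414). The M2 interaction held without any single library, and with batch 2 added its adjusted p was 0.0502, or 0.0452 with batch as a covariate. The Mφ interaction of Sdhaf4 was lost without any 1 of 8 of the 12 libraries, namely WT replicates 2 and 3 and KO replicates 1 and 3 in control medium and WT replicates 1 and 2 and KO replicates 2 and 3 in MPNST-CM (adjusted p up to 0.146), and with batch 2 added (adjusted p = 0.1). It was also lost without the 2 libraries described with Sdhd (adjusted p = 0.0864).

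Between genotypes, Sdhaf4 was lower in KO M2 in control medium (-0.60 ± 0.14, adjusted p = 0.00448), a call lost without WT replicate 4, the highest of its group (adjusted p = 0.0634). It was higher in KO M2 in MPNST-CM (0.38 ± 0.14, adjusted p = 0.0335). This call was lost without WT replicate 1, 2 or 3 or KO replicate 1 or 2 (adjusted p up to 0.161), with DESeq2 (adjusted p = 0.0657), with median-of-ratios scaling (adjusted p = 0.0568), with no filter on low counts (adjusted p = 0.122) and without the 5 replicate 1 libraries that stood apart (adjusted p = 0.076). It was also lost with batch 2 added (adjusted p = 0.272, or 0.29 with batch as a covariate) and without the 2 libraries described with Sdhd (adjusted p = 0.0558). In Mφ, its differences of -0.28 in control medium and 0.28 in MPNST-CM did not pass (adjusted p = 0.198 and 0.103).

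Sdhaf1 was the least abundant in counts of the 3 assembly factors, with 62 to 136 counts per library. It had 11.999, 16.8 and 19.1 CPM in WT M2 in control medium and 9.55, 10.1 and 8.42 CPM in WT Mφ in control medium, without overlap. This was its single called difference (log2 fold change 0.77 ± 0.20, adjusted p = 0.00252) beside the interaction of IL-4 and medium in WT. In WT Mφ in MPNST-CM it had 12.8, 13.6 and 13.9 CPM, all above control medium, at a log2 fold change of 0.52 ± 0.19 (adjusted p = 0.0587). In WT M2 in MPNST-CM it had 9.54, 15.2 and 9.04 CPM (-0.50, adjusted p = 0.0587), and in KO M2 in control medium 9.29, 11.6 and 11.6 CPM (-0.56 against WT, adjusted p = 0.0503). The difference between genotypes in M2 in control medium passed with DESeq2 (adjusted p = 0.0411) and with median-of-ratios scaling (adjusted p = 0.0428). It also passed with no filter (adjusted p = 0.025), the compared groups alone (0.0309) and without the 5 replicate 1 libraries (0.0221). It did not pass with batch 2 added. The difference between media in WT Mφ passed with the compared groups alone (adjusted p = 0.0425). The interaction of genotype and IL-4 passed with DESeq2 (adjusted p = 0.0456), no filter (0.0193) and without the 5 libraries (0.0367). It was not called in the main tests, with batch 2 added or with the compared groups alone.

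Sdhd, the membrane anchor SDHD, differed from the other subunits in its spread between replicates. It had 5.08, 80.5 and 92.8 CPM in WT Mφ in MPNST-CM and 119, 8.29 and 85.6 CPM in KO M2 in control medium. The low libraries held 44 and 62 counts of Sdhd, so that they were above the limit of detection. In WT Mφ in control medium it had 27.7, 116 and 87.3 CPM. The other 5 groups ranged from 49.98 CPM, in KO Mφ in MPNST-CM, to 151 CPM, in WT M2 in control medium, and overlapped with each other. In all 5 replicate 1 libraries that stood apart, Sdhd was the lowest of its group.

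**Figure D5:**
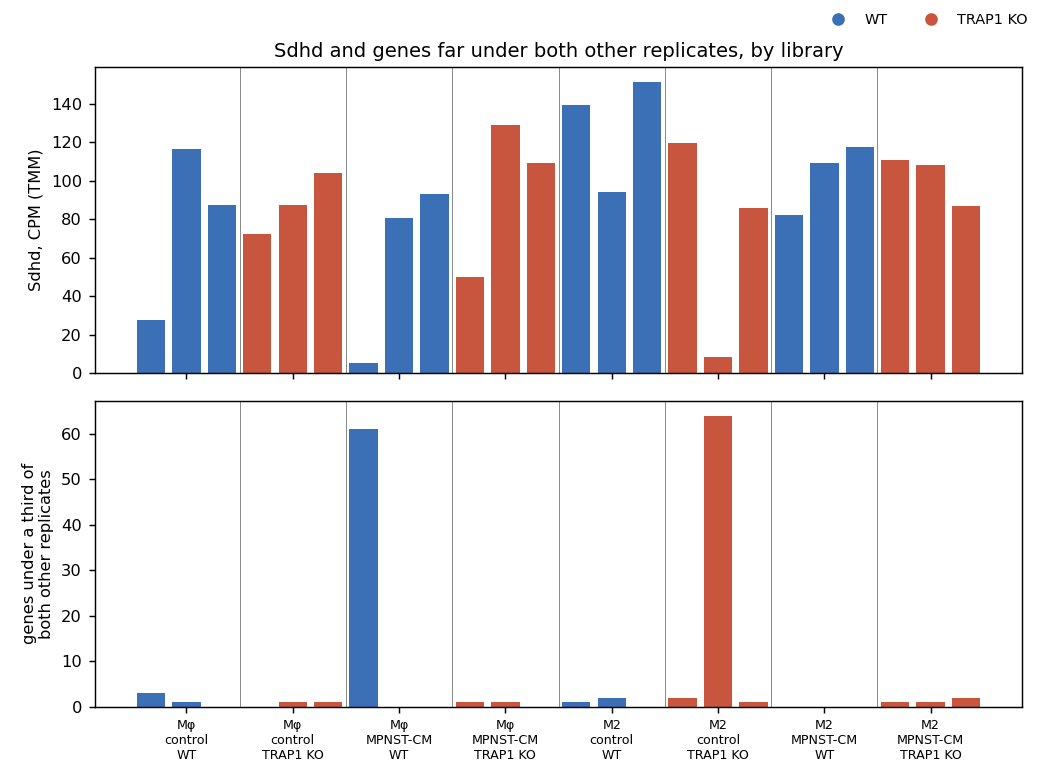
Sdhd in CPM in each of the 24 libraries of batch 1, by group (n = 3). Replicate 1 of WT Mφ in MPNST-CM (5.08 CPM) and replicate 2 of KO M2 in control medium (8.29 CPM) lie below the other 22 libraries.

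The same 2 libraries were low in other genes. Genes with at least 5 CPM in both other replicates and lower by over 3-fold than each of them numbered 61 in replicate 1 of WT Mφ in MPNST-CM and 64 in replicate 2 of KO M2 in control medium. In the other 22 libraries this number was at most 3 (median 1), the 3 being in replicate 1 of WT Mφ in control medium, with Sdhd among them. The 2 libraries shared 36 of these genes, 59.0% of the first set and 56.25% of the second, and no other gene of the 8 was among them. Examples are Adam9, a membrane metalloprotease, at 9.59 CPM against 91.2 and 94.2 CPM in the first library and its replicates and 13.2 against 114 and 92.2 CPM in the second, and Tap2, a peptide transporter, at 10.1 against 90.0 and 78.5 CPM and 16.6 against 122 and 117 CPM. This measure and these examples were chosen after the values of Sdhd by library were seen, and the cause was not tested.

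Sdhd was not called in any of the 12 comparisons or 4 interactions. With all 24 libraries its log2 fold changes had standard errors of about 0.77, for example -0.37 ± 0.77 for MPNST-CM in WT Mφ (adjusted p = 0.801) and -0.85 ± 0.77 for KO in M2 in control medium (adjusted p = 0.512). Without the 2 libraries these became 0.21 (adjusted p = 0.811) and -0.33 (adjusted p = 0.705), and again no comparison of Sdhd was called. IL-4 in WT cells in control medium gave 0.73 with and 0.72 without them (adjusted p = 0.495 and 0.194). A change of Sdhd like that of the other subunits was therefore not detectable with this spread. Without the same 2 libraries, Sdhb was called lower in KO M2 in control medium (-0.35, adjusted p = 0.0105), where it had not passed before (-0.23, adjusted p = 0.0771), and Acod1 was called higher in MPNST-CM in WT Mφ (0.49, adjusted p = 0.0369).

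The patterns of the genes over the 8 group means were then compared as the root-mean-square difference of log2 CPM, each gene centred on its own mean. Sdha and Sdhb differed by 0.139, Sdha and Sdhc by 0.148 and Sdhb and Sdhc by 0.125, and Sdhaf2 and Sdhaf4 by 0.222, while Sdha and Acod1 differed by 0.983. Among the other 13613 genes, Sdhc ranked 231 in likeness to Sdhb and Sdhb ranked 131 in likeness to Sdha. The genes most like Sdha were Vdac2, a channel of the outer mitochondrial membrane (0.0485), Pigu (0.0547) and Myo1g (0.0570). Those most like Sdhb were Ptcd2 (0.0422), Cox6c, a subunit of cytochrome c oxidase (0.0457), and Ubox5 (0.0508). For Sdhc they were the copper chaperone Atox1 (0.0751), Zc3h12c (0.0761) and Mgmt (0.0833), and for Sdhd the non-coding RNA Snhg6 (0.116), Pank4 (0.172) and Ttc7b (0.180). Snhg6 was also among the genes low in the same 2 libraries as Sdhd. No gene was nearer to Acod1 than LOC118568588 (0.504), Slc39a4 (0.512) and Rasgef1b (0.530).

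Genes around the enzyme were read as lists. For the supply and use of succinate, 8 of 10 genes were tested, and most did not pass between media or genotypes. The exception in size was Slc25a10, the mitochondrial dicarboxylate carrier that exchanges succinate, which fell with MPNST-CM in KO Mφ (-0.97, adjusted p = 4.15e-06) and KO M2 (-0.76, adjusted p = 0.00015) and rose in WT Mφ (0.50, adjusted p = 0.00823). In Mφ in MPNST-CM it was lower in KO than in WT (-1.37, adjusted p = 1.11e-08), where 1 of the 8 list genes was higher and 2 were lower (38.2% of all genes were called), with a median of -0.17 against 0.04 over all genes. With IL-4 in WT cells in control medium 4 of the 8 rose and 2 fell (median 0.30 against -0.03), where 37.2% of all genes were called, among them Suclg1, of succinyl-CoA ligase (0.53, adjusted p = 0.000104), Dlst, of the oxoglutarate dehydrogenase complex (0.49, adjusted p = 0.000239), and Suclg2, which fell (-0.996, adjusted p = 0.00207).

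Of 13 genes for iron-sulfur clusters and flavin, 5 rose and 1 fell with MPNST-CM in KO Mφ, 4 rose and 1 fell in KO M2, 2 rose in WT Mφ and none was called in WT M2, where 32.9%, 36.9%, 21.2% and 24.5% of all genes were called. Hspa9, the mitochondrial Hsp70 that takes part in cluster assembly, rose by 1.20 in KO Mφ (adjusted p = 1.65e-12), 0.89 in KO M2 (adjusted p = 3.93e-10) and 0.62 in WT Mφ (adjusted p = 1.18e-06). The genes that fell were Hscb, a co-chaperone of cluster transfer, in KO Mφ (-0.55, adjusted p = 0.00588) and Slc25a32, the mitochondrial carrier of folate and flavin, in KO M2 (-0.48, adjusted p = 0.0125). Sdhaf3, a further assembly factor for SDHB, with 2.89 to 8.52 CPM per library, rose in KO M2 (0.88 ± 0.23, adjusted p = 0.00363). The list medians were 0.19 in KO Mφ, 0.37 in KO M2, 0.21 in WT Mφ and 0.02 in WT M2.

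Among 5 other dehydrogenases that pass electrons to ubiquinone, Gpd2, of the glycerol phosphate shuttle, rose with MPNST-CM in all 4 settings, by 0.52 in WT Mφ (adjusted p = 0.000314), 0.88 in KO Mφ (adjusted p = 6.06e-08), 0.33 in WT M2 (adjusted p = 0.0148) and 0.34 in KO M2 (adjusted p = 0.00719). Sqor, which oxidizes sulfide, was higher in KO than in WT in MPNST-CM, by 0.75 in Mφ (adjusted p = 5.27e-05) and 0.99 in M2 (adjusted p = 1.41e-06). Over the 4 comparisons of media, the list had 2, 2, 1 and 2 genes higher and 0, 0, 0 and 1 lower in WT Mφ, KO Mφ, WT M2 and KO M2, where 21.2%, 32.9%, 24.5% and 36.9% of all genes were called.

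Of 3 genes around cis-aconitate, the substrate of Acod1, 2 rose with IL-4 in WT cells in control medium (median 0.53, and 19.1% of all genes called as higher), Idh3a, of isocitrate dehydrogenase (0.77, adjusted p = 0.00784) and Cs, citrate synthase (0.53, adjusted p = 0.000712). Idh3a was lower in KO than in WT M2 in control medium (-0.80, adjusted p = 0.0151), where Acod1 was also lower.

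Inflammatory genes that are induced together with Acod1 in activated macrophages moved in both directions. In Mφ in control medium, where Acod1 was higher in KO, 1 of 6 tested was higher, the transcription factor Irf1 (0.67, adjusted p = 1.12e-06), and none was lower, where 8.63% of all genes were called as higher. In Mφ in MPNST-CM, where Acod1 was lower in KO, Il12b (2.07, adjusted p = 0.00888) and Il1b (1.75, adjusted p = 6.43e-10) were higher and Tnf lower (-1.35, adjusted p = 6.73e-09). In this comparison 38.2% of all genes were called. Il12b had a median of 0.58 CPM over the 24 libraries (at most 3.12 CPM) and Nos2 one of 0.25 CPM, near the limit of detection. The list medians, which include Il12b and Nos2, were 0.83 and 0.41, against 0.03 and 0.04 over all genes.

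Batch 2 held replicate 4 of WT Mφ in control medium, KO M2 in control medium and KO M2 in MPNST-CM, with 9997776 to 11152362 counts. The values of batch 2 and those of batch 1 beside them were scaled over all 27 libraries. The library labelled KO M2 in MPNST-CM had 4462 CPM of Retnla, an IL-4 response gene, against 213 to 235 CPM in batch 1, and 30.4 CPM of Vegfa against 215 to 217 CPM. The library labelled KO M2 in control medium had 24.0 CPM of Retnla against 1731 to 2029 CPM and 628 CPM of Vegfa against 56.5 to 62.0 CPM. For these genes each of the 2 libraries went against the batch 1 libraries of its label, and so it did for Chil3, another IL-4 response gene. Arg1, arginase 1, kept the order of the labels, with 48.4 CPM in the library labelled MPNST-CM against 221 to 235 CPM in batch 1 and 2.29 CPM in the other against 4.06 to 5.45 CPM. All 4 were picked with their values in view. Xist had 2962 and 4220 counts in them.

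Between these 2 libraries, Sdha was 305 CPM in the one labelled MPNST-CM and 172 CPM in the one labelled control medium, Sdhb 397 and 291 CPM, and Sdhc 284 and 128 CPM, all opposite in direction to batch 1. Sdhaf2, at 68.3 and 98.0 CPM, was opposite as well. Acod1, at 8.81 and 26.3 CPM, and Sdhaf4, at 29.7 and 24.6 CPM, had the direction of batch 1. Sdhd was at 4.01 CPM (42 counts) in the library labelled control medium, against 161 CPM in the other. WT Mφ replicate 4 had 224 CPM of Sdha, 252 CPM of Sdhb, 222 CPM of Sdhc and 13.3 CPM of Acod1. With a single library on each side there is no test within batch 2.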

How the data were processed

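Counts per gene in 27 libraries of 3′ RNA-seq (QuantSeq, stranded, NextSeq500) were deposited by the authors as a raw table, without normalization. The submitters' processing notes name Trimmomatic, FastQC, HISAT2, SAMtools and featureCounts and the build mm39, while the study's methods name mm10, and versions and annotation are not given in the sources used here. Of the 32 columns, 5 belong to none of the described libraries and were left out. Libraries were grouped by their labels.

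The main fit used the 24 libraries of batch 1 with edgeR 4.0.16 (limma 3.58.1, R 4.3.3): TMM scaling, filterByExpr on the groups, the quasi-likelihood test with the robust option for 8 groups without covariates, and Benjamini-Hochberg adjustment at 0.05 over 13614 genes. An interaction is a difference of 2 log2 fold changes. CPM were computed from the TMM-scaled library sizes, and the limit of 3 counts covers counting error only. All 24 pairs of replicates within a group varied beyond sampling noise (chi-square divided by its degrees of freedom, 2.11 to 37.4). The edgeR step was also run on simulated data with known changes. Alternatives were the 27 libraries with and without batch as a covariate, DESeq2 1.42.0, median-of-ratios size factors, no filter, the compared groups alone, the replicate number as a block, leaving out each library in turn and, added after seeing the data, leaving out 2 libraries low in Sdhd or the 5 libraries over 4 times as far from both other replicates as those were from each other.

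The genes and lists were chosen with earlier results of these data known, and some list genes are not reported here and were left out of the lists' counts and medians. The genes named are the 8 genes, Trap1, up to 3 called genes of each list with the largest change in a comparison, and for Acod1 and each subunit the 3 genes of most similar pattern. Adam9, Tap2, Hscb, Slc25a32, Retnla, Chil3, Clec10a, Mrc1, Nos2, Arg1, Vegfa, Xist and the Y-linked genes were named after their values were seen.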

Additional observations from a re-analysis of the deposited data

Results flagged for a closer look

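Differences between the effects in 2 settings, tested as interactions in edgeR with Benjamini-Hochberg adjustment, were found for 12 of the values above. The response of Mφ to MPNST-CM differed between genotypes by -0.43 for Sdha, 0.56 for Sdhaf4 and -3.03 for Acod1, as TRAP1 KO minus WT on the log2 scale. The response of M2 cells differed by 0.36 for Sdhc, which was lost in most alternatives as given above, and 0.98 for Sdhaf4. The IL-4 response in control medium differed between genotypes by -0.62 for Sdhc and -2.57 for Acod1. In WT, the IL-4 difference in MPNST-CM minus that in control medium was -0.43 for Sdha, -0.56 for Sdhb, -0.51 for Sdhc, -1.02 for Sdhaf1 and -1.93 for Acod1.

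Single libraries far from the rest of their group were looked for in the 3 groups of 4 libraries, by the gap to the nearest library as a share of the group's range. This found 5 of the 24 combinations of gene and group, where chance gives about 1 in 20, or 1.2. All 5 are batch 2 libraries. WT Mφ replicate 4 in control medium had 13.3 CPM of Acod1, against 24.4 to 26.0 CPM in batch 1. The library labelled TRAP1 KO M2 replicate 4 in MPNST-CM had 305 CPM of Sdha, against 178 to 194 CPM, and 397 CPM of Sdhb, against 262 to 275 CPM. The library labelled TRAP1 KO M2 replicate 4 in control medium had 128 CPM of Sdhc, against 198 to 207 CPM, and 26.3 CPM of Acod1, against 10.6 to 12.6 CPM. The cause was not tested.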

How the results depend on the processing

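Of 128 values, 8 genes in 12 comparisons and 4 interactions, 46 were called, and 18 of these kept their direction and their call in every alternative. Of the 82 that were not called, 66 were not called in any. With all 27 libraries 26 calls were lost and 1 changed sign, with batch as a covariate 22 were lost, 1 was gained and 1 changed sign. Both alternatives include the 2 batch 2 libraries that went against their labels, as described above. What these libraries contribute to the losses was not tested. The sign changed for Sdhc between media in TRAP1 KO M2, to 0.13 and 0.11 (adjusted p = 0.669 and 0.711). DESeq2 lost 2 calls and gained 2, median-of-ratios size factors lost 2 and gained 1, no filter lost 4 and gained 5, the compared groups alone lost 4 and gained 4, and leaving out the 2 libraries low in Sdhd, chosen after seeing the data, lost 5 and gained 2. Leaving out the 5 replicate 1 libraries that stood apart, also chosen after seeing the data, lost 1 and gained 8. Causes were not tested.

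Of the 8 genes, the number called between media in WT Mφ, 0, became 1 with batch as a covariate, 2 with no filter, 2 with the compared groups alone and 1 without the 2 libraries. With all 27 libraries, and then with batch as a covariate, the number went from 5 to 2 and 3 in TRAP1 KO Mφ, from 4 to 1 and 2 in WT M2, and from 6 to 2 and 2 in TRAP1 KO M2. The share of all genes called fell with it, from 32.9% to 19.3% and 20.6%, from 24.5% to 7.39% and 8.82%, and from 36.9% to 6% and 7.2%. Batch 2 added no library of TRAP1 KO Mφ or WT M2, and the 5 libraries left out hold none of M2 in control medium. Between genotypes, it went from 3 to 1 in Mφ in MPNST-CM with 27 libraries, from 3 to 5 in M2 in control medium with the compared groups alone and to 6 without the 5 libraries, and from 4 in M2 in MPNST-CM to 0 and 0 with 27 libraries and 2 with no filter. For M2 against Mφ, it went from 2 to 1 and 1 in TRAP1 KO in control medium with 27 libraries, from 1 to 2 in WT in MPNST-CM with no filter, and from 1 in TRAP1 KO in MPNST-CM to 0 and 0 with 27 libraries and 0 with the compared groups alone. For the interactions, 27 libraries took 3 to 1 and 1 for genotype by medium in Mφ, 2 to 0 and 1 in M2, 2 to 1 and 1 for genotype by IL-4, and 5 to 1 and 1 for IL-4 by medium, which was 3 with the compared groups alone. That in M2 was 1 with DESeq2, with median-of-ratios size factors, with no filter, with the compared groups alone and without the 2 libraries.

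Leaving out each library in turn, the number ranged between media from 0 to 0 in WT Mφ, 4 to 5 in TRAP1 KO Mφ, 3 to 5 in WT M2 and 4 to 6 in TRAP1 KO M2. Between genotypes it ranged from 1 to 1, 3 to 4, 2 to 4 and 2 to 4 in Mφ in control medium, Mφ in MPNST-CM, M2 in control medium and M2 in MPNST-CM. For IL-4 it ranged from 4 to 4 and 2 to 2 in control medium and from 1 to 1 and 0 to 1 in MPNST-CM, WT first. For the interactions it ranged from 2 to 4 and 1 to 2 for genotype by medium in Mφ and M2, 2 to 3 for genotype by IL-4 and 4 to 5 for IL-4 by medium.

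Replicate numbers were not taken to pair the libraries, since the labels tie them to no shared source and 34 of 77 pairs of libraries with equal numbers, not all, had residuals correlated over 0.1. Their mean was 0.107, above the -0.0451 of the 175 other pairs, with 30 over 0.1. With the replicate number as a block, 2 calls were lost, Sdhaf4 between genotypes of M2 in control medium (-0.37, adjusted p = 0.0546) and the Sdhc interaction of genotype and medium in M2 (0.28, adjusted p = 0.103). The 6 gained were Sdhaf1 and Acod1 between media in WT Mφ (adjusted p = 0.0334 and 0.0216), Sdhaf4 between genotypes of Mφ in MPNST-CM (adjusted p = 0.0354), Sdhaf2 between M2 and Mφ in WT in MPNST-CM (adjusted p = 0.0349), and the interactions of genotype and medium of Sdhaf2 in Mφ (adjusted p = 0.0371) and Acod1 in M2 (0.67, adjusted p = 0.042). The number called with the block thus became 2 between media in WT Mφ and 2 between M2 and Mφ in WT in MPNST-CM. Over all genes, the number called between media in WT Mφ was 2889 in batch 1 and 957 with 27 libraries.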
